A study of Mus musculus with 18 samples.

Results

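The miR-17 seed family is a group of mature miRNAs that share bases 2 to 8 from the 5′ end, the seed, and its 6 members here are mmu-miR-17-5p, mmu-miR-20a-5p, mmu-miR-20b-5p, mmu-miR-106a-5p, mmu-miR-106b-5p and mmu-miR-93-5p. They were taken by name from 1265 mouse miRNA probes on 9 one-colour arrays, and all 6 had a probe. MiR-17-5p and miR-20a-5p are encoded by the miR-17~92 cluster and so by the transgene of this study, miR-20b-5p and miR-106a-5p by the miR-106a-363 cluster, and miR-106b-5p and miR-93-5p by the miR-106b-25 cluster.

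The samples were splenic B cells from mice in which miR-17~92 was overexpressed from the immunoglobulin Eμ enhancer and IgH promoter, which act in B cells. There were 3 arrays of the founder line Tg79, 3 of the founder line Tg9 and 3 of wild-type (WT) mice without the transgene. B cells of all 3 groups were isolated on magnetic beads, and no strain, age or further treatment is given in the labels. The labels number the replicates, but do not state that each array is a mouse of its own, so the p-values measure the spread between these arrays.

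A miRNA binds target mRNAs mainly through its seed and lowers their translation or stability. Members of one seed family can therefore act on overlapping sets of targets. The miR-17~92 cluster is known as an oncogenic cluster in B-cell lymphoma and as a factor in early B-cell survival. The miR-106a-363 and miR-106b-25 clusters are its paralogs, and miR-106b-25 lies within the gene Mcm7, which encodes a subunit of the replicative helicase. An array reads a mature sequence and cannot tell copies made from the transgene from those made from the endogenous gene.

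The 6 mature sequences are shown because the comparison turns on how far each paralog departs from the 2 transgene-encoded members. They are from RefSeq (mouse build GRCm38.p6), with the seed in capitals.
mmu-miR-17-5p: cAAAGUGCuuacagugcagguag
mmu-miR-20a-5p: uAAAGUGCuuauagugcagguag
mmu-miR-20b-5p: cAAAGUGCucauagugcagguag
mmu-miR-106a-5p: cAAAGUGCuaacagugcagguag
mmu-miR-106b-5p: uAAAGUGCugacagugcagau
mmu-miR-93-5p: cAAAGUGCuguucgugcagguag
MiR-17-5p lies at chr14:115043684-115043706 and miR-20a-5p at chr14:115044183-115044205, both on the plus strand. MiR-20b-5p lies at chrX:52742159-52742181 and miR-106a-5p at chrX:52742541-52742563, both on the minus strand. MiR-106b-5p (chr5:138165787-138165807) and miR-93-5p (chr5:138165574-138165596), also on the minus strand, fall within the span of Mcm7 (chr5:138164583-138172111). Exon and intron positions were not used here.

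All 6 hold the seed AAAGUGC, and the differences lie at position 1 and from position 10 on. Positions are counted from 1 at the 5′ end, with the base of miR-17-5p first and that of the other member last. MiR-106a-5p differs from miR-17-5p at 1 of 23 positions (U10A). MiR-20a-5p differs at 2 (C1U and C12U), and miR-20b-5p also at 2 (U10C and C12U). MiR-106b-5p is 2 bases shorter and differs at 3 of the 21 positions compared (C1U, U10G and G20A). MiR-93-5p differs at 4 adjacent positions (U10G, A11U, C12U and A13C). Set against miR-20a-5p, miR-20b-5p differs at 2 positions, miR-106a-5p at 3, miR-106b-5p at 3 and miR-93-5p at 4. MiR-20b-5p and miR-106a-5p thus lie within 2 bases of a transgene-encoded member, and miR-106b-5p and miR-93-5p 3 or more bases from both.

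Values are normalized log2 intensities, which are comparable between arrays for 1 probe but not between probes. A probe counted as above background on an array where its intensity passed the 95th percentile of 24 negative control spots. Of the 1265 probes, 24.4% to 32.3% did so on Tg79 arrays, 33.0% to 42.6% on Tg9 arrays and 35.1% to 40.8% on WT arrays. Of these, 501 probes above background on at least 3 of 9 arrays were tested with limma, and all 6 members were above background on all 9 arrays. The arrays lie on 3 slides by the code in their deposited names: the 3 Tg79 arrays with WT2, the 3 Tg9 arrays with WT1, and WT3 alone. Against their labels, Tg9-2 and Tg9-3 read close to WT for the products of the transgene. Some results that rest on them are also given without them, a choice made on these same readings.

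MiR-17-5p, encoded by the transgene, read 13.12, 13.54 and 13.25 on Tg79 arrays and 13.25, 10.60 and 10.86 on Tg9 arrays, against 10.26, 10.57 and 10.34 on WT arrays, here and below in the order of arrays 1, 2 and 3. All Tg79 arrays and Tg9-1 lay well above WT, while Tg9-2 and Tg9-3 lay just above the highest WT array. MiR-20a-5p, the other transgene-encoded member, read 12.48, 13.25 and 13.12 on Tg79 arrays, 12.91, 10.39 and 10.52 on Tg9 arrays, against 9.91, 10.26 and 9.91 on WT arrays. It followed the order of miR-17-5p, with no overlap between Tg79 and WT.

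The members of the miR-106a-363 cluster, which the transgene does not encode, read in the same way. MiR-20b-5p had 12.13, 12.91 and 12.69 on Tg79 arrays, 11.74, 9.88 and 10.08 on Tg9 arrays, against 9.34, 9.79 and 9.20 on WT arrays. MiR-106a-5p had 12.27, 12.61 and 12.61 on Tg79 arrays, 11.66, 10.00 and 10.04 on Tg9 arrays, against 9.57, 9.91 and 9.43 on WT arrays. For both, Tg79 and WT did not overlap, and Tg9-2 and Tg9-3 lay just above the highest WT array.

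The members of the miR-106b-25 cluster read differently. MiR-106b-5p had 9.60, 9.82 and 9.34 on Tg79 arrays and 9.51, 9.51 and 9.72 on Tg9 arrays, against 9.17, 9.82 and 9.29 on WT arrays, so that all 3 groups overlapped. MiR-93-5p had 10.60, 11.00 and 10.08 on Tg79 arrays and 9.82, 9.74 and 9.64 on Tg9 arrays, against 9.48, 9.67 and 9.40 on WT arrays. Each Tg79 array was above each WT array, by at least 0.41, and Tg9 overlapped WT.

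**Figure D1:**
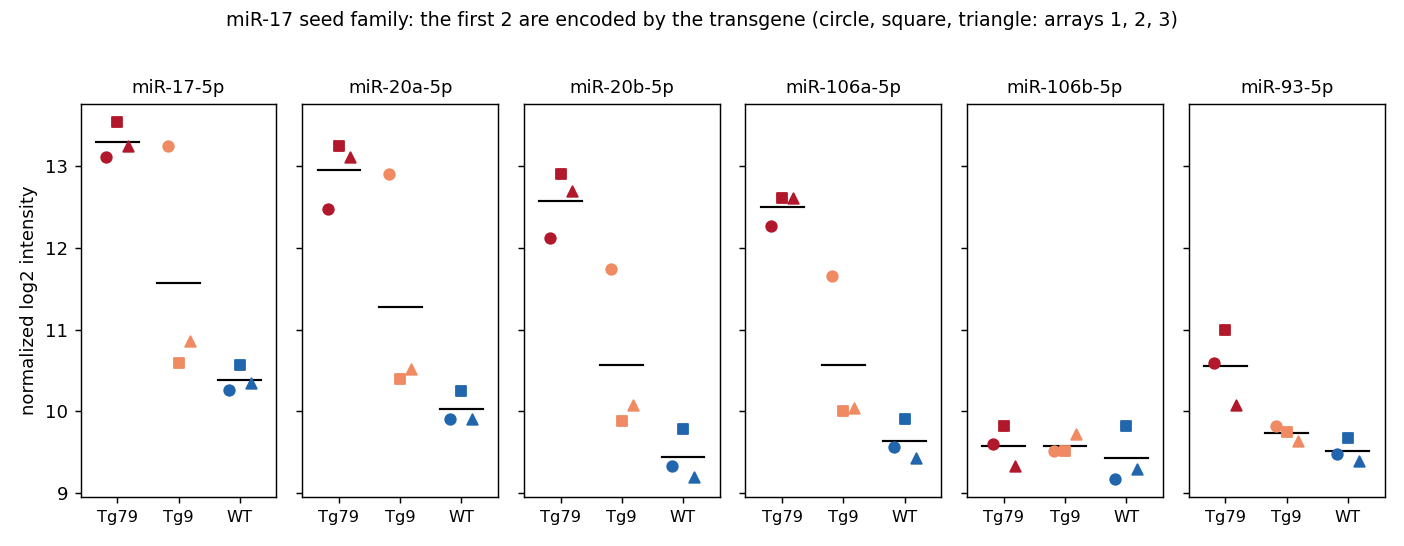
Normalized log2 intensity (vertical axis) of each family member, in 1 panel a member, for the 3 arrays of Tg79, Tg9 and WT, with a line at each group's mean. For the first 4 members the Tg79 arrays and Tg9-1 stand above the others, for miR-93-5p only the Tg79 arrays do, and for miR-106b-5p all groups overlap.

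Tg79 against WT compares the line with the higher readings with mice that lack the transgene. Of the 6 members 5 rose at a limma adjusted p under 0.05, where 3.59% of all 501 tested miRNAs rose (18 miRNAs). Since each array holds the RNA of a whole preparation, fewer cells of a type and less RNA per cell cannot be told apart. The mean of miR-17-5p was 13.30 ± 0.22 in Tg79 and 10.39 ± 0.16 in WT (SD, n = 3 each), a log2 difference of 2.91 ± 0.63 (SE, adjusted p = 0.0477) or 7.52-fold. For miR-20a-5p the means were 12.95 ± 0.41 in Tg79 and 10.03 ± 0.20 in WT, 7.58-fold higher (log2 2.92 ± 0.63). The mean change of miR-17-5p minus that of miR-20a-5p was -0.01. Within single arrays, miR-17-5p minus miR-20a-5p was 0.63, 0.29 and 0.13 on Tg79 arrays and 0.34, 0.20 and 0.35 on Tg9 arrays, against 0.34, 0.31 and 0.43 on WT arrays, so single arrays differed in this by more than the 2 mean changes did.

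The paralogs of the miR-106a-363 cluster rose as far. MiR-20b-5p had means of 12.58 ± 0.40 in Tg79 and 9.44 ± 0.31 in WT, a log2 difference of 3.13 ± 0.48 (limma adjusted p = 0.0387), the largest of all 501. MiR-106a-5p had means of 12.50 ± 0.20 in Tg79 and 9.63 ± 0.25 in WT, a log2 difference of 2.86 ± 0.42 (limma adjusted p = 0.0387). By size of change these 4 members held ranks 1 to 4 of the 501, and all 4 were above WT on every Tg79 array.

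MiR-93-5p rose less, with means of 10.56 ± 0.46 in Tg79 and 9.51 ± 0.14 in WT, a log2 difference of 1.05 ± 0.21 (2.06-fold, limma adjusted p = 0.0449, rank 22). MiR-106b-5p had means of 9.58 ± 0.24 in Tg79 and 9.43 ± 0.34 in WT, a log2 difference of 0.16 ± 0.19 that was not called (limma adjusted p = 0.646). Every Tg79 array lay above every WT array for 5 of the 6 members, as it did for 13.0% of all tested miRNAs. The median difference was 2.89 over the 6 members and -0.04 over all 501.

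The direction of miR-106b-5p depends on how the arrays are scaled. Its raw intensity was 562, 559 and 538 on Tg79 arrays, against 792, 1057 and 846 on WT arrays, lower on every Tg79 array. With each array scaled to its 75th percentile the log2 difference was -0.44 (limma adjusted p = 0.184), and within the slide that Tg79 shares with WT2 it was -0.23. With the authors' own values it was -0.72, where the 484 miRNAs then tested had a median of -0.86. Taken from the median over all miRNAs tested with the same values, miR-106b-5p stood at 0.13 with the authors' values. It stood at 0.19 with quantile normalization and -0.40 with 75th percentile scaling. MiR-93-5p was 1.19 above the median with the authors' values and 0.57 above it with 75th percentile scaling, and was called in neither.

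The sizes of the first 4 members were steadier than their calls. Leaving out 1 array at a time, miR-17-5p differed by 2.73 to 3.06, miR-20a-5p by 2.70 to 3.17, miR-20b-5p by 2.90 to 3.40 and miR-106a-5p by 2.71 to 3.03. However, 0 members and 0% of tested miRNAs were called higher without Tg79-2, Tg9-3, WT1 or WT3. The count was 2 without Tg79-1 (1.60% of tested miRNAs) or WT2 (1.02%), 3 without Tg79-3 (3.41%), and 4 without Tg9-1 (3.22%) or Tg9-2 (3.54%). With Tg9-2 and Tg9-3 both left out it was 4 (3.82%). MiR-93-5p kept its call in 5 of 21 alternatives. Within the slide shared with WT2 the Tg79 means lay 2.73 above it for miR-17-5p, 2.69 for miR-20a-5p, 2.78 for miR-20b-5p, 2.59 for miR-106a-5p and 0.89 for miR-93-5p, and with slide as a factor 0 members were called.

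**Figure D2:**
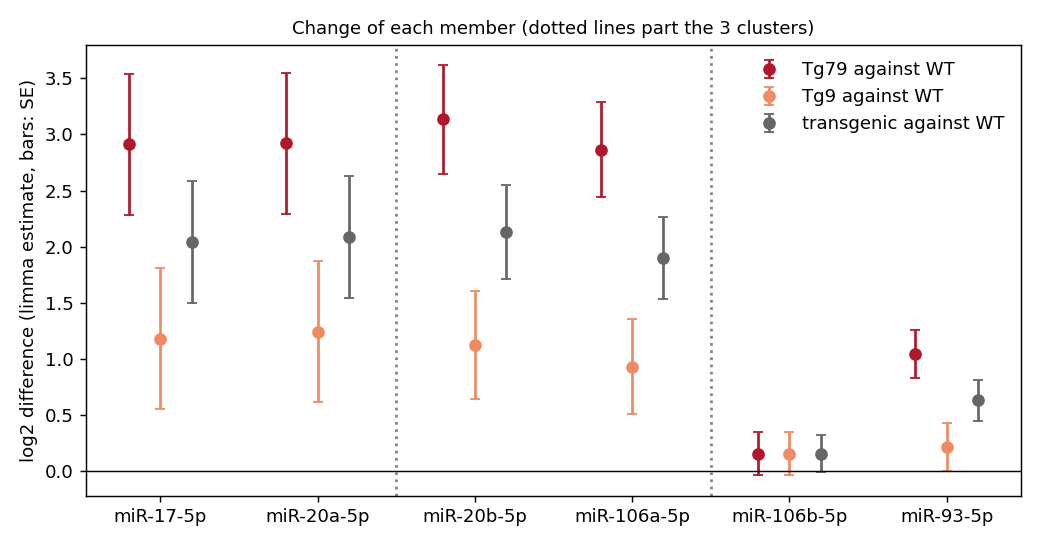
Log2 difference (vertical axis, limma estimate with SE) of each member in Tg79 against WT, Tg9 against WT and both lines against WT. In each comparison the first 4 members lie close together and above miR-93-5p and miR-106b-5p.

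In Tg9 against the same WT arrays the differences were smaller, and Tg9-1 carried most of them. The log2 difference was 1.18 ± 0.63 (SE, n = 3 each) for miR-17-5p, 1.24 ± 0.63 for miR-20a-5p, 1.12 ± 0.48 for miR-20b-5p, 0.93 ± 0.42 for miR-106a-5p, 0.22 ± 0.21 for miR-93-5p and 0.16 ± 0.19 for miR-106b-5p. None of the 6 was called (limma, smallest adjusted p = 0.990), nor was any other tested miRNA (0%), with 3 at an unadjusted p under 0.05. For 4 members every Tg9 array lay above every WT array, against 3.59% of tested miRNAs. On Tg9-1, the difference from the WT mean was 2.86 for miR-17-5p, 2.88 for miR-20a-5p, 2.30 for miR-20b-5p and 2.03 for miR-106a-5p. Without Tg9-1 the group differences were 0.33 for miR-17-5p, 0.44 for miR-20a-5p, 0.52 for miR-20b-5p and 0.37 for miR-106a-5p. Tg9-2 and Tg9-3 were picked out by their low readings of the transgene's products. Calls of members without them, here and over both lines, therefore depend on that choice and decide nothing. With Tg9-2 and Tg9-3 both left out, 3 members were called and 0.674% of the 445 miRNAs then tested, with the lone Tg9 array assumed to vary like the other groups.

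Both lines against WT gave a mean that Tg79 and Tg9-1 carry, with the first 4 members again above miR-93-5p and miR-106b-5p. The log2 difference was 2.05 ± 0.54 (SE) for miR-17-5p, 2.08 ± 0.54 for miR-20a-5p, 2.13 ± 0.42 for miR-20b-5p, 1.90 ± 0.37 for miR-106a-5p, 0.63 ± 0.19 for miR-93-5p and 0.16 ± 0.16 for miR-106b-5p. None was called (limma, smallest adjusted p = 0.190), as for all 501 (0%), with 67 at an unadjusted p under 0.05. All 6 transgenic arrays lay above all 3 WT arrays for the first 4 members, against 2.20% of tested miRNAs. Without Tg9-1 4 members were called, against 0.805% of tested miRNAs, and with Tg9-2 and Tg9-3 both left out also 4, against 1.80%.

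Between the lines, Tg79 against Tg9, none of the 6 was called (0% of the 501, 77 at an unadjusted p under 0.05), and miR-20b-5p had the largest difference among them, 2.01 ± 0.48 (limma adjusted p = 0.156). Every Tg79 array lay above every Tg9 array for 3 members, miR-20b-5p, miR-106a-5p and miR-93-5p, as for 8.98% of tested miRNAs. MiR-106b-5p averaged 9.58 in both lines. With quantile normalization, the differences of miR-17-5p and miR-20a-5p rest on Tg9-2 and Tg9-3. With both left out, Tg79 minus Tg9-1 was 0.05 for each of these members, where it was 1.73 and 1.68 with them. For miR-20b-5p it was then 0.82 and for miR-106a-5p 0.85, against 2.01 and 1.93 with them. For miR-93-5p it was 0.75, against 0.83 with them, and for miR-106b-5p 0.09. The near equality of miR-17-5p and miR-20a-5p depends on the scaling. With 75th percentile scaling, miR-17-5p read 12.59, 13.67 and 13.64 on Tg79 arrays, against 12.56 on Tg9-1. MiR-20a-5p read 12.03, 13.47 and 13.52, against 12.42. MiR-20b-5p read 11.70, 13.05 and 12.59, against 11.67, and miR-106a-5p 11.83, 12.86 and 12.55, against 11.65.

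Whether a paralog changed as much as the transgene-encoded members was tested within arrays. On each array the mean log2 of miR-17-5p and miR-20a-5p was taken from that of the paralog. The absolute value of this measure mixes 2 probes and has no meaning of its own, and only its difference between groups is read. For miR-20b-5p it was -0.67, -0.49 and -0.49 on Tg79 arrays and -1.33, -0.62 and -0.61 on Tg9 arrays, against -0.75, -0.62 and -0.93 on WT arrays. For miR-106a-5p it was -0.53, -0.78 and -0.57 on Tg79 arrays and -1.42, -0.50 and -0.65 on Tg9 arrays, against -0.52, -0.50 and -0.70 on WT arrays. With quantile normalization both overlapped WT, and Tg9-1 stood lowest in both. The place of Tg9-1 depends on the scaling. With 75th percentile scaling, miR-20b-5p read 11.67 on Tg9-1, with miR-17-5p at 12.56 and miR-20a-5p at 12.42. On Tg79-3 it read 12.59, with miR-17-5p at 13.64 and miR-20a-5p at 13.52. MiR-106a-5p then read 11.65 on Tg9-1 and 12.55 on Tg79-3. With that scaling Tg79-3 thus stood below Tg9-1 in both measures.

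For miR-106b-5p the measure was -3.20, -3.58 and -3.85 on Tg79 arrays and -3.56, -0.98 and -0.97 on Tg9 arrays, against -0.91, -0.60 and -0.84 on WT arrays. For miR-93-5p it was -2.20, -2.39 and -3.10 on Tg79 arrays and -3.26, -0.75 and -1.05 on Tg9 arrays, against -0.61, -0.74 and -0.73 on WT arrays. In both, all 6 transgenic arrays lay below all 3 WT arrays, though Tg9-2 and Tg9-3 lay close to them.

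Over both lines against WT, the change of a paralog minus that of the transgene-encoded pair was 0.06 for miR-20b-5p (exact two-sided permutation p = 0.845), -0.17 for miR-106a-5p (exact p = 0.583), -1.91 for miR-106b-5p (exact p = 0.0595) and -1.43 for miR-93-5p (exact p = 0.0476). After Benjamini-Hochberg adjustment over these 4 tests the exact p-values became 0.845, 0.778, 0.119 and 0.119 in the same order, so none passed. The 84 splits of the arrays allow a smallest p of 0.0119. With Tg9-2 and Tg9-3 left out, the changes were 0.03 for miR-20b-5p (exact p = 0.943), -0.20 for miR-106a-5p (exact p = 0.543), -2.80 for miR-106b-5p and -2.04 for miR-93-5p (exact p = 0.0286 for both, unadjusted and the smallest that 4 arrays against 3 allow). Those arrays were left out for low readings of the subtracted pair, so these p-values depend on that choice and decide nothing. In Tg79 against WT the values were 0.22 for miR-20b-5p (exact p = 0.2), -0.05 for miR-106a-5p (exact p = 0.5), -2.76 for miR-106b-5p and -1.87 for miR-93-5p (exact p = 0.1 for both, the smallest that 3 arrays against 3 allow). With 75th percentile scaling, those in Tg79 were 0.06 for miR-20b-5p, -0.15 for miR-106a-5p, -3.16 for miR-106b-5p and -2.19 for miR-93-5p.

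**Figure D3:**
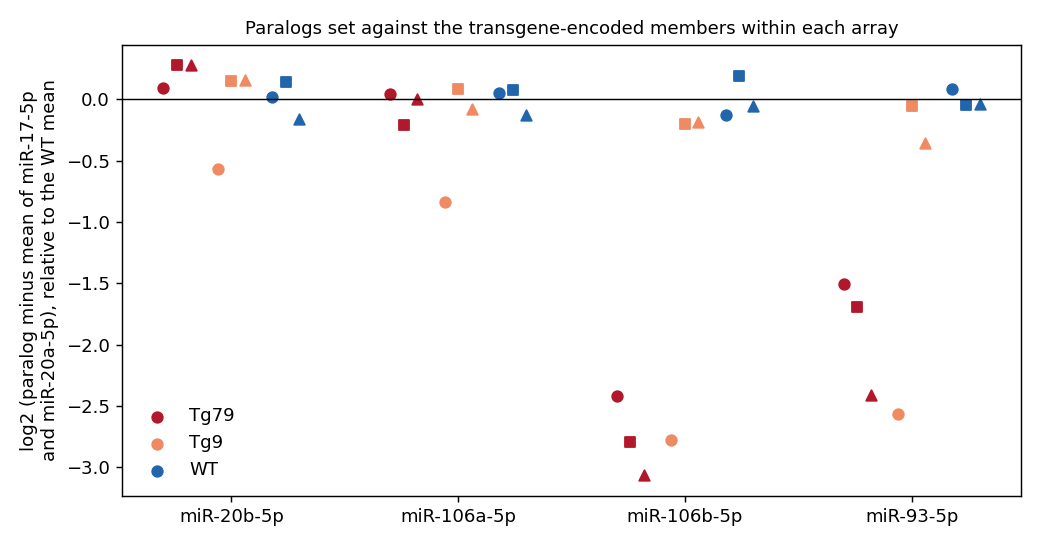
Log2 intensity of each paralog minus the mean of miR-17-5p and miR-20a-5p on the same array, set to 0 at the WT mean (vertical axis), for Tg79, Tg9 and WT arrays (circle, square and triangle for arrays 1, 2 and 3). MiR-20b-5p and miR-106a-5p stay within 1 log2 unit of 0, while miR-106b-5p and miR-93-5p lie 1.5 or more below it on the Tg79 arrays and on Tg9-1.

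Beside the sequences, the paralogs within 2 bases of a transgene-encoded member rose in Tg79 as far as it did. The estimates of those further away were smaller, and their order beside the differing bases depends on how bases are counted. MiR-106a-5p, 1 base from miR-17-5p, differed by 2.86 in Tg79, and miR-20b-5p, 2 bases from both, by 3.13. By position, miR-106b-5p, 3 bases away and shorter, differed by 0.16, less than miR-93-5p at 4 bases with 1.05. The edit distance (bases changed, added or lost) also counts the missing bases. By it, miR-93-5p is 3 and miR-106b-5p 5 from miR-17-5p, so the one further away changed less. The 4 paralogs are too few for a test. The arrays' probe sequences were not used here, and a change of miR-20b-5p or miR-106a-5p cannot be told apart from signal of miR-17-5p or miR-20a-5p on their probes.

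The opposite strands of the same hairpins are less alike in sequence and give a second reading of each gene. They are shown, in lower case, because these strands tell the hairpins apart by more bases than the members do.
mmu-miR-17-3p: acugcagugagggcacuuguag
mmu-miR-20a-3p: acugcauuacgagcacuuaaag
mmu-miR-20b-3p: acugcagugugagcacuucuag
mmu-miR-106a-3p: acugcagugccagcacuucuuac
mmu-miR-106b-3p: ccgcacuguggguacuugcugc
mmu-miR-93-3p: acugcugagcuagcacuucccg
The edit distance (bases changed, added or lost) from miR-17-3p is 3 for miR-20b-3p, 6 for miR-106a-3p and 8 for both miR-106b-3p and miR-93-3p.

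Of the transgene's own hairpins both opposite strands rose in Tg79. MiR-17-3p read 9.17, 10.08 and 9.77 on Tg79 arrays and 9.07, 7.39 and 7.46 on Tg9 arrays, against 7.12, 7.56 and 7.21 on WT arrays. MiR-20a-3p read 7.18, 8.71 and 8.13 on Tg79 arrays and 7.27, 6.37 and 6.47 on Tg9 arrays, against 6.14, 6.36 and 6.23 on WT arrays. Their log2 differences in Tg79 against WT were 2.38 ± 0.46 (SE, limma adjusted p = 0.0387) and 1.77 ± 0.39 (limma adjusted p = 0.0499). As with miR-17-5p and miR-20a-5p, only Tg9-1 of the Tg9 arrays stood apart from WT.

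The opposite strands of the miR-106a-363 members were not well above background. MiR-106a-3p had raw intensities of 59.8, 48.0 and 49.3 on Tg79 arrays, against 46.7, 45.5 and 59.4 on WT arrays, below the negative control limit on all 9. MiR-20b-3p had 62.3, 52.5 and 50.1 on Tg79 arrays, below the limit on each, against 65.3, 48.2 and 62.1 on WT arrays, above it on 1. It was above the limit on 1 Tg9 array as well. Neither was tested, and a change of these strands was not detectable at this signal. MiR-93-3p was below the limit on all 9 arrays. MiR-106b-3p was above it on all 9, with a log2 difference of 0.28 ± 0.08 in Tg79 against WT that was not called (limma adjusted p = 0.0911).

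Over the whole clusters, in Tg79 against WT, 6 of the 7 tested other arms of miR-17~92 rose. Of all 501 tested miRNAs 3.59% did so, the share to set beside each count in this comparison. The median log2 difference was 1.77 over the 7 arms (against -0.04 over all 501), with a range of 0.73 to 2.80. Among the arms that rose were miR-19a-3p (2.80) and miR-18a-5p (2.34), from the miR-19 and miR-18 seed families of the same transcript. MiR-92a-1-5p, not well above background on any WT array, was at least 1.54-fold higher. It was above background on 3 of 9 arrays, all transgenic, so its place among the tested arms depended on its high readings there. MiR-19b-1-5p (0.73) was not called. Of 2 arms that miR-17~92 and miR-106a-363 both encode, miR-92a-3p rose (2.44) and miR-19b-3p had 2.45 with a limma adjusted p of 0.0624. Of arms only miR-106a-363 encodes, 4 of 8 were tested, with a median of 0.01. MiR-18b-5p, a near relative of miR-18a-5p, rose (1.76 ± 0.34), whereas miR-92a-2-5p (-0.05), miR-363-3p (0.06) and miR-363-5p (-0.06) were not called. Of the other arms of miR-106b-25, 3 of 4 were tested and none was called, with miR-25-3p at -0.01 and miR-25-5p at 0.01.

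**Figure D4:**
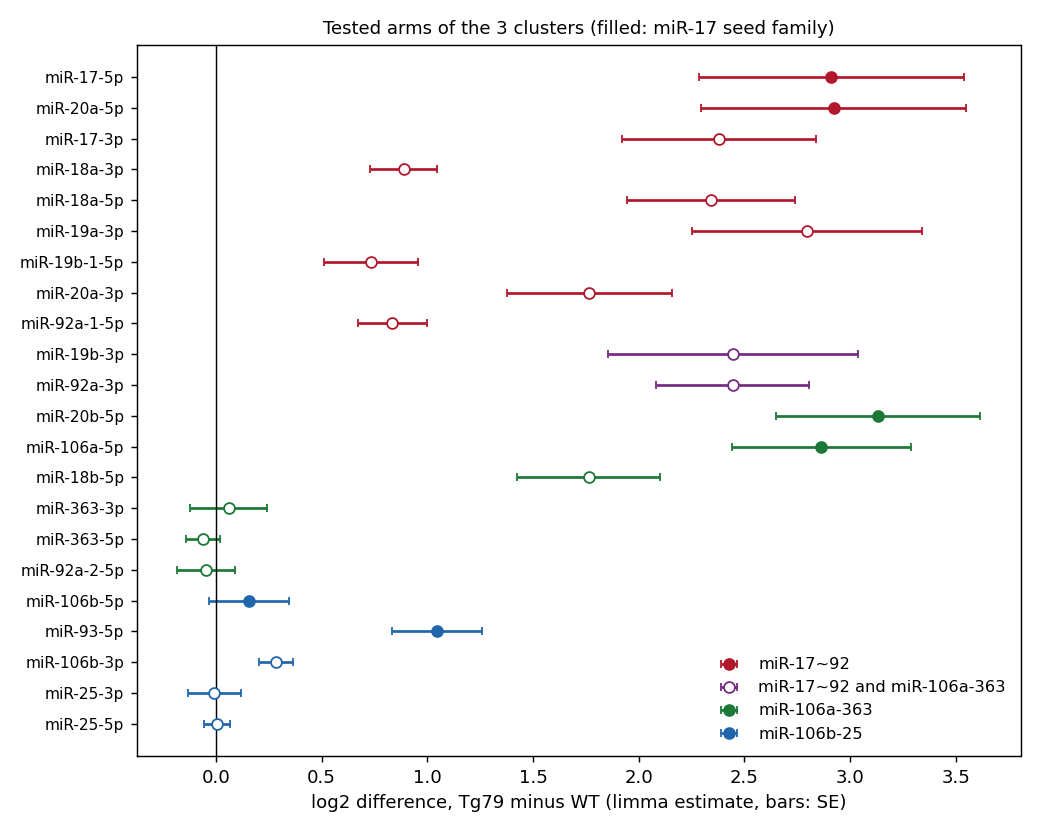
Log2 difference of Tg79 minus WT (horizontal axis, limma estimate with SE) for each tested arm of the 3 clusters, with family members filled. MiR-20b-5p, miR-106a-5p and miR-18b-5p of miR-106a-363 lie to the right among the miR-17~92 arms, and its arms miR-92a-2-5p, miR-363-3p and miR-363-5p lie near 0.

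Mouse miR-6383 is the only other mature miRNA in the RefSeq table with the same seed. It was above background on 0 of 9 arrays, with raw intensities of 40.3 to 55.5. Of 12 further miRNAs that hold AAGUGC, the core of the seed, within bases 1 to 9, among them the miR-302 and miR-290 families of embryonic stem cells, 10 had a probe and 1 was tested. That 1, miR-105, had a log2 difference of -0.05 in Tg79 against WT and was not called. The other 10 with a probe, miR-6383 among them, were not above background often enough for a test.

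Across the 9 arrays, which share their slides and their scaling, miR-17-5p and miR-20a-5p had a Pearson r of 0.995, and miR-20b-5p and miR-106a-5p one of 0.997. The r of miR-17-5p was 0.981 with miR-20b-5p, 0.980 with miR-106a-5p, 0.807 with miR-93-5p and 0.247 with miR-106b-5p. The first 4 members were most like other arms that miR-17~92 encodes. MiR-20a-5p was most like miR-19b-3p (0.995), which miR-106a-363 encodes as well, and miR-20b-5p most like miR-17-3p (0.992). MiR-106a-5p was most like miR-17-3p (0.988), followed by miR-92b-3p (0.971). MiR-93-5p was most like miR-18b-5p (0.949) and miR-18a-5p (0.944), and miR-106b-5p was most like miR-134-3p (0.815), which was above background on 6 of 9 arrays. The arrays span 3 groups, so differences between groups enter each value.

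The B-cell preparations carried the leukocyte miRNAs miR-142-3p and miR-142-5p and the lymphocyte miRNA miR-150-5p above background on all 9 arrays. MiR-150-5p ranged from 9.20 to 12.41 on Tg79 arrays, against 12.27 to 13.11 on WT arrays, and was not called (limma adjusted p = 0.175). Of 10 miRNAs that mark myeloid, erythroid, endothelial or stromal cells, miR-144-3p was above background on 0 arrays, and miR-126-5p and miR-199a-3p on 1 each. The summed level of the 10 was 9.48 to 10.01 on Tg79 arrays and 9.81 to 10.40 on Tg9 arrays, against 9.62 to 9.78 on WT arrays. Probes near background enter this sum, so it does not measure other cells alone. Some markers of either kind shifted in Tg79 without being called. MiR-142-3p was lower on every Tg79 array, 9.36 to 10.34 against 10.64 to 11.52 on WT arrays (limma adjusted p = 0.0911). The myeloid miR-223-3p was lower there too, 6.21 to 6.69 on Tg79 arrays against 7.16 to 7.64 on WT arrays (limma adjusted p = 0.320), and read 9.10 on Tg9-1. The endothelial miR-126-3p was higher on every Tg79 array, 6.35 to 6.90 against 5.94 to 6.23 on WT arrays (limma adjusted p = 0.163). The part of these differences in the members' values was not tested.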

How the data were processed

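The authors deposited scanner files with the median pixel intensity of each spot, not normalized, per the file headers, and a series table of log2 values (how made: not given in the sources used here). Each value in that table, as read here, stands 5 rows from its probe (Spearman's rho 1 after moving it), its column medians are 4.46 to 4.50, and how it was scaled and centred is unknown. RNA was extracted with Trizol and labelled with Cy5, per the labels' protocols. In R 4.3.3 with limma 3.58.1, spots were corrected with normexp (offset 50, foreground alone), put on the log2 scale and quantile normalized. The foreground was used alone since the background column followed the spot with r of 0.982 to 0.995. One limma model held 3 group means, with two-sided tests and Benjamini-Hochberg adjustment over 501 probes; a call is an adjusted p under 0.05. The steps were tested on simulated data. The number of arrays limits the precision. Members, lists and tests were chosen with earlier results of these data known. Named miRNAs are the members, all arms of the 3 clusters, same-seed miRNAs, cell markers from a list and, for likeness, the 3 most correlated with each member; miR-92b-3p and miR-134-3p enter by that rule. Arrays for mRNA have no gene names in the files and were not used here, so targets were not analysed. Alternatives are given in the closing section.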

Additional observations from a re-analysis of the deposited data

How the results depend on the processing

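Tried were the authors' values, the background column or no background correction, cyclic loess or 75th percentile scaling, no filter or one on all 9 arrays, trend and robust moderation, array weights, the replicate block, slide as a factor, each array left out in turn, and Tg9-2 and Tg9-3 left out together. Of the 6 members, 5 were called in Tg79 against WT, where 3.59% of tested miRNAs were called higher. That count was 0 with the background column, no filter, the replicate block or slide as a factor (0% of tested miRNAs in each). It was 0 to 4 with 1 array left out (0% to 3.54%). Tg79 against Tg9 had 0 to 4 with 1 array left out (0% to 1.61%). Both lines against WT had 0 to 4 with 1 array left out (0% to 0.805%) and 5 with array weights (4.39%). Calls over all miRNAs in Tg79 against WT numbered 23, and 0 to 99 over the alternatives. Same-numbered arrays did not deviate together (r -0.43 to 0.38 over 9 pairs), so the replicate block is a fit of shared numbers only. With the replicate block the paralog changes over both lines were 0.06 for miR-20b-5p, -0.17 for miR-106a-5p, -1.91 for miR-106b-5p and -1.43 for miR-93-5p (exact p = 0.0741, no longer under 0.05).

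The change of miR-93-5p against the transgene-encoded pair over both lines was -1.31 with the background column (exact p = 0.321), -1.46 with 75th percentile scaling (exact p = 0.0595), -1.50 with cyclic loess (exact p = 0.0595), -1.45 with slide as a factor (exact p = 0.125, where 0.0625 is the smallest possible) and -1.73 to -1.22 with 1 array left out. That of miR-106b-5p was -2.06 with the authors' values (exact p = 0.0476) and -2.29 to -1.64 with 1 array left out. Without Tg9-2 and Tg9-3, which were left out for low readings of the pair, it was -2.80. With the background column it turned to 1.12, and in Tg79 alone to 1.78. That of miR-20b-5p turned to -0.016 with slide as a factor and spanned -0.0093 to 0.16 with 1 array left out. In Tg79 alone that of miR-106a-5p spanned -0.13 to 0.035.

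With the background column, single members turned as well. In Tg79 against WT these were miR-17-5p (-0.18), miR-106a-5p (-1.51) and miR-93-5p (-0.41), in Tg9 against WT miR-20b-5p (-0.012) and miR-93-5p (-1.27), over both lines miR-106a-5p (-0.15) and miR-93-5p (-0.84), and in Tg79 against Tg9 miR-17-5p (-1.27) and miR-106a-5p (-2.73). MiR-106b-5p turned in Tg79 against WT with the authors' values (-0.72), 75th percentile scaling (-0.44) and slide as a factor (-0.23), and over both lines with the first 2 (-0.23 and -0.20). In Tg79 against Tg9, where it was 0.00, it turned with the authors' values (-0.99), 75th percentile scaling (-0.48), cyclic loess (-0.19) and slide as a factor (-0.64), and spanned -0.12 to 0.12 with 1 array left out. MiR-93-5p turned there to -0.0050 with the authors' values. The cause of these turns was not tested.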
